A study of Saccharomyces cerevisiae with 21 samples.

Results

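The small nucleolar RNAs (snoRNAs) of budding yeast were followed through drying and rehydration. Members were the probe sets of the Affymetrix YG_S98 chip annotated with 1 gene symbol made of SNR and a number, with the spliceosomal SNR6, SNR7, SNR14, SNR19 and SNR20 left out. This gave 59 probe sets for 57 genes, of 5656 genes and 9275 probe sets tested on the chip, and each gene was represented by its brightest probe set. Of the 57 genes, 40 encode box C/D RNAs and 17 box H/ACA RNAs. The RefSeq table used for names lists 76 snoRNA genes, so 19 were not analysed here, among them SNR17B, SNR30, SNR10 and SNR191.

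The cells were BY4743, a diploid laboratory strain known to lack HIS3, LEU2 and URA3 and to carry 1 functional copy each of LYS2 and MET15. There were 21 arrays of total RNA, 3 for each of 7 time points. All cultures were grown at 30 °C in YPD, which is rich in glucose and amino acids, until A600 was 0.8, and the cells were then dispersed in YPD diluted 1:20 at 22 to 25 °C. The control was taken at that point, a sample at 18 h of drying in 9 cm dishes was labelled 50% dry, and the dry sample was held for 72 h at a relative humidity of 20% after drying for 42 h. The dry cells were given 1:20 YPD again, cells of 4 dishes were pooled, and samples were taken at 15, 45, 90 and 360 min. Every later sample had spent longer in diluted medium at the lower temperature than the control, and no undried culture kept alongside was analysed here, so loss of water, medium, temperature and time cannot be told apart. The labels do not say whether the 3 samples of a time point came from separate cultures, so the p-values rest on a spread between samples that could be technical.

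Small nucleolar RNAs work in the nucleolus, where ribosomal RNA is made, as particles with a fixed set of proteins. Box C/D RNAs pair with ribosomal RNA and direct methylation of the ribose by the methyltransferase Nop1, and box H/ACA RNAs direct the change of uridine to pseudouridine by Cbf5. A few of them, U3 (SNR17A and SNR17B), U14 (SNR128), SNR30 and SNR10, are needed for cleavage of the ribosomal RNA precursor. In yeast most have genes of their own, some are cut from a shared precursor, and some lie in introns of protein genes and are released by debranching and trimming. Mature snoRNAs lack a poly(A) tail, and the labels do not state how the labelled target was primed, so the signal cannot be assigned to mature, extended or tailed forms.

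Measures of RNA quality differed along the series, and not all in the same way. The log2 ratio of the 3' to the 5' probe set of the actin gene ACT1, which rises as labelled RNA gets shorter, was -0.31 ± 0.14 (SD, n = 3) in control, 0.61 ± 0.09 at 18 h and 1.05 ± 0.10 in the dry cells. It was 1.72 ± 0.18, 1.89 ± 0.20, 2.43 ± 0.21 and 2.32 ± 0.04 at 15, 45, 90 and 360 min. The ratio for SPT15 was 1.66 ± 0.03 in control, lower at 1.27 ± 0.05 in the dry cells and higher at 2.78 ± 0.24 at 360 min. For SRB4 it was 0.82 ± 0.32 in control, 1.79 ± 0.15 at 18 h, 1.72 ± 0.17 in the dry cells and 2.13 ± 0.21 at 360 min. Control and dry arrays did not overlap in the SPT15 ratio. The control and 18 h arrays did not overlap in the ACT1 ratio, nor did the dry and 360 min arrays (exact two-sided permutation p = 0.1 for each, the smallest possible with 3 against 3, and 0.159 adjusted over 27 such tests). The mean log2 signal of 9 spike-in probe sets (BioB, BioC, BioDn and CreX) was 0.31 above control in the dry arrays and 2.32 above control at 360 min. The labels do not state whether equal amounts were added, so values scaled to them are an alternative scaling of the arrays and not a measure of RNA per cell. One array stood apart, replicate 2 of 90 min, the only array scanned on its day: a probe set for 18S ribosomal RNA read 9912 there and 95.9 and 122 on the other 90 min arrays. That array had the highest signal of its group for 38 of the 57 snoRNAs. The part of RNA length, spike-ins or this array in the snoRNA values was not tested beyond the scalings and leave-outs given beside the counts.

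**Figure D1:**
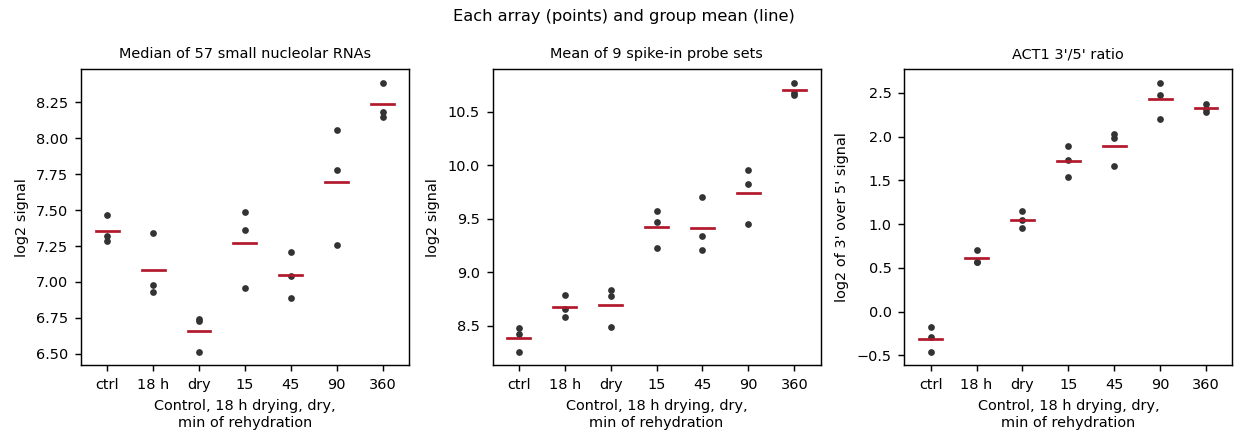
Median log2 signal of the 57 snoRNAs (left), mean log2 signal of 9 spike-in probe sets (middle) and log2 3'/5' ratio of ACT1 (right) on each of the 21 arrays. Points are arrays and red lines are group means. The snoRNA median was lowest in the dry arrays and highest at 360 min, while the ACT1 ratio went from a mean of -0.31 in control to 2.43 at 90 min and the spike-ins were highest at 360 min.

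Most snoRNA signals were lower in dry cells than in the control, 33 of 57 by test, with 9 higher. Over all probe sets 27.2% were lower and 40.1% higher. On the deposited scale most snoRNA signals reached their highest levels in the 360 min samples. The signals, in the units of the deposited table, summed over the 57 members to 20663 in control, 16152 at 18 h and 10435 in the dry cells as group means. The sums were 20526, 20189, 32398 and 55874 at 15, 45, 90 and 360 min. The dry arrays lay between 10055 and 10797 and the 360 min arrays between 52401 and 61086, and neither group overlapped any other. The median member had a mean of 168 in control, 108 in the dry state and 293 at 360 min. RNA amount per cell and the number of cells that yielded RNA cannot be told apart in such bulk samples.

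Over the 7 time points 55 of the 57 snoRNAs changed by limma's moderated F test (adjusted p under 0.05), against 84.2% of all probe sets. The exceptions were SNR36, a box H/ACA RNA, and SNR64, a box C/D RNA whose mean was 30.8 ± 6.2 in control and 3.73 ± 0.404 at 45 min. The highest group mean was at 360 min for 44 members and in control for 9. The lowest was in the dry state for 27, in control for 12 and at 18 h for 8. Signals exceeded the background level of 29.6 (19 probe sets for genes yeast does not have set this level, at their 95th percentile) on every array for 39 members. SNR65 was at or below background on all 21 arrays.

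**Figure D2:**
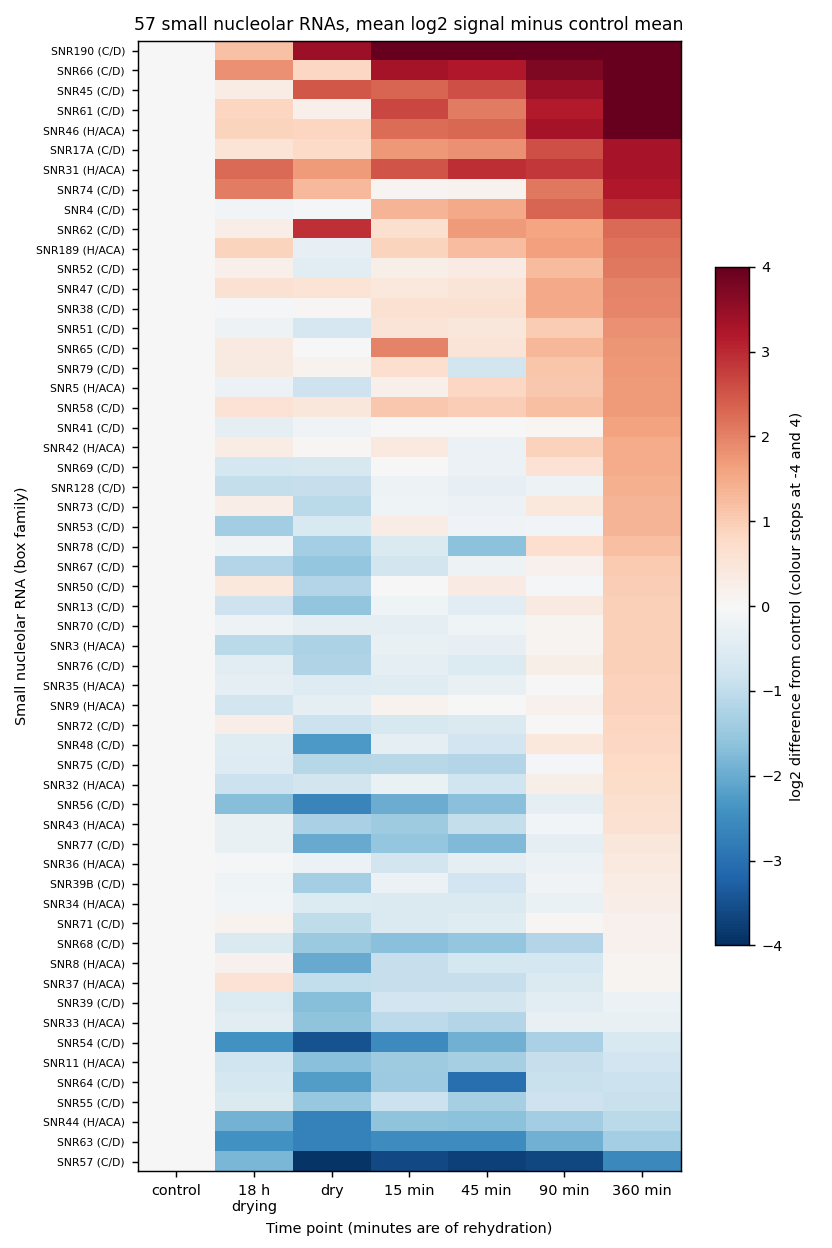
Mean log2 signal of each of the 57 snoRNAs at each time point minus its control mean (3 arrays per group), ordered by the value at 360 min, with the box family in brackets. Red is above and blue below control. The dry column is mostly blue (42 of 57 means below control) and the 360 min column mostly red (48 of 57 above control on the deposited scale). SNR190, SNR66 and SNR45 are at the top and SNR57, SNR63 and SNR44 at the bottom. With spike-in scaling, 8 members were higher and 38 lower than control by test at 360 min, where 410 of all 9275 probe sets were higher and 7521 lower.

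During the first 18 h of drying some snoRNAs rose and others fell. On the deposited scale rises were fewer than over the chip, and the share of falls was near that of the chip. By limma with Benjamini-Hochberg adjustment over all probe sets, 10 of 57 rose, where 36.2% of all probe sets rose, and 15 fell, where 27.3% of all fell (63.5% in either direction). The median change of the members was -0.20 on the log2 scale and that of all probe sets 0.11. With every array centred on its median, 7 rose and 23 fell, where 2976 of all 9275 probe sets rose and 2845 fell. The rises with the largest change were those of SNR31, SNR74, SNR66, SNR189 and SNR46, and the falls those of SNR54, SNR63, SNR44, SNR56 and SNR67. SNR66, a box C/D methylation guide, rose from 74.4 ± 12.1 to 264 ± 44.2 (SD, n = 3; log2 change 1.83 ± 0.17, adjusted p = 9.92e-08 by limma). SNR63, also box C/D, fell from 337 ± 12.1 to 66.1 ± 23.3 (log2 change -2.41 ± 0.27, adjusted p = 8.25e-07 by limma). SNR67 fell from 2317 ± 163 to 1027 ± 169 (-1.19 ± 0.25, adjusted p = 0.000656 by limma). For SNR189, box H/ACA, the log2 change was 0.90 ± 0.22, adjusted p = 0.00191 by limma, and the call was lost with scan day as a block (0.80). Replicate 2 of 18 h was scanned with the control arrays. On that day alone the median log2 change was -0.28 for the members and 0.10 for all probe sets. That comparison had 1 array at 18 h, so the spread of that group was not measured.

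From 18 h to the dry state, falls prevailed. In that step 24 of 57 snoRNAs fell, where 17.0% of all probe sets fell, and 3 rose, where 22.1% of all rose (39.2% in either direction). The members' median was -0.62 on the log2 scale, against 0.06 for all probe sets. SNR8, a box H/ACA RNA, fell from 1467 ± 284 to 322 ± 64.6 (-2.19 ± 0.14, adjusted p = 1.13e-08 by limma). SNR48 and SNR77, both box C/D, fell from 204 ± 3.48 to 59.5 ± 13.8 and from 1167 ± 92.5 to 364 ± 98.7. SNR50 fell from 254 ± 65.9 to 82.9 ± 16.1 (-1.60 ± 0.18, adjusted p = 4.75e-06 by limma). SNR57 was at or below background in all dry arrays, at least 1.69-fold lower than at 18 h, and this call was lost without replicate 1 or 3 of 18 h (log2 changes of -1.92 and -1.90) or replicate 1 or 2 of the dry group (-1.69 and -2.07). The 3 rises were those of SNR45 (2.16 ± 0.30, adjusted p = 2.73e-05 by limma), SNR62 and SNR190. The call of SNR62 was lost with scan day as a block (1.58) and without replicate 2 of 18 h, and that of SNR190 with the higher signal floor.

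Against the undried control, dry cells had lower signals for 33 of 57 snoRNAs and higher signals for 9. Over all probe sets 27.2% fell and 40.1% rose in this comparison, 67.3% in either direction. The median change was -0.84 for the snoRNAs and 0.24 for all probe sets. With arrays centred on their medians the split was 39 lower and 5 higher, where 3194 of all 9275 probe sets were lower and 2957 higher. With scan day as a block it was 26 and 5, where 1863 of all were lower and 2736 higher. Besides the members described further on, SNR63 fell to 54.5 ± 18.3 (-2.69 ± 0.27, adjusted p = 1.77e-07 by limma). The 39 members above background on all arrays gave 26 falls and 4 rises. SNR62, a box C/D RNA, was at or below background in control and at 80.0 ± 23.9 in dry cells, at least 2.62-fold higher (limma, adjusted p = 0.00343). With scan day as a block its difference turned to -0.29, but control and dry arrays share no scan day, so this value rests on replicate 2 of 18 h, which read 1.2, and on control arrays, all at or below background. A second probe set for SNR62 read 16.7 ± 3.8 in control and 61.6 ± 22.3 in dry cells.

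The first 15 min of rehydration brought rises on the deposited scale. In that interval 26 of 57 snoRNAs rose, where 12.8% of all probe sets rose, and 1 fell, where 27.5% of all fell (40.3% in either direction). The members' median was 0.66 on the log2 scale and that of all probe sets -0.18. Scaled to the spike-ins instead, 6 rose and 11 fell, where 75 of all 9275 probe sets rose and 5849 fell. The medians were then -0.07 for the members and -0.91 for all probe sets. SNR66 was at 132 ± 10.9 in dry cells and at 744 ± 151 at 15 min (2.48 ± 0.17, adjusted p = 1.14e-07 by limma). SNR48 rose from 59.5 ± 13.8 to 223 ± 12.2 (1.93 ± 0.17, adjusted p = 8.67e-07). SNR13, a box C/D guide for the large ribosomal subunit RNA, rose from 639 ± 132 to 1699.7 ± 374 (1.41 ± 0.22, adjusted p = 9.83e-05). The fall was that of SNR62, whose 3 arrays at 15 min were all at or below background, at least 2.62-fold lower than in dry cells. Its call was lost in 3 of 6 leave-outs, those of replicates 2 and 3 of the dry group and replicate 3 of 15 min (log2 changes of -2.32, -2.07 and -1.69).

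Between 15 and 45 min limma called none of the 57 snoRNAs, while 0.27% of all probe sets rose and 0.151% fell. Without adjustment 7 members had p under 0.05 by limma, as did 1278 of all 9275 probe sets. With log2(value + 50) 1 member was called, where 28 of all probe sets rose and 26 fell. With an intensity trend in the variance 1 was called, where 40 of all rose and 24 fell. From 45 to 90 min 16 rose and none fell, where 2.17% of all probe sets rose and 3.31% fell. The median was 0.58 for the members and -0.03 for all probe sets. SNR48 rose from 172 ± 30.1 to 382 ± 19.5 (1.17 ± 0.17, adjusted p = 0.00212 by limma). SNR77 rose from 429 ± 95 to 1221 ± 595 (1.40 ± 0.31, adjusted p = 0.0158 by limma), a call lost without replicate 2 of 45 min (1.26) or replicate 2 or 3 of 90 min (1.05 and 1.30). SNR78 went from at or below background on all 3 arrays to 32.7 ± 7.6 (limma, adjusted p = 0.0107). At 90 min 1 of its 3 arrays was still at or below background. SNR79 went from 7.43 ± 5.35 to 24.3 ± 7.86, near background throughout. The call of SNR79 was lost without replicate 3 of 45 min (1.22) or replicate 2 or 3 of 90 min (1.58 and 1.91). This step rested on few arrays: without replicate 2 of 90 min 8 snoRNAs rose, where 118 of all 9275 probe sets rose. Without replicate 3 of 90 min the count was 10, where 100 of all rose. Without replicates 1 and 2 of 45 min it was 9 and 6, where 153 and 96 of all rose. Without replicate 3 of 45 min and replicate 1 of 90 min it was 13 and 17, where 167 and 231 rose. With all arrays 201 of all probe sets rose. The snoRNA count was 8 with scan day as a random block, where 71 of all rose and 115 fell. With spike-in scaling it was 5, where 13 of all rose and 701 fell.

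From 90 to 360 min 27 snoRNAs rose and none fell, where 15.4% of all probe sets rose and 22.0% fell. The members' median was 0.70 and that of all probe sets -0.02. SNR41 rose from 550.2 ± 241 to 1524 ± 111 (1.55 ± 0.23, adjusted p = 7.64e-05 by limma), and SNR68 from 47.6 ± 11 to 121 ± 22.5 (1.36 ± 0.29, adjusted p = 0.00157 by limma). Within the day on which 5 of these 6 arrays were scanned, 32 rose and none fell. In that fit 1303 of all 9275 probe sets rose and 1827 fell. Scaled to the spike-ins, 1 rose and 8 fell, where 69 of all 9275 probe sets rose and 5950 fell. The medians were then -0.26 for the members and -0.98 for all probe sets.

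Over the whole of rehydration, from dry to 360 min, 52 of 57 snoRNAs rose and none fell, where 21.2% of all probe sets rose and 40.7% fell (61.9% in either direction). The 5 that were not called were SNR36, SNR55, SNR57, SNR62 and SNR64. The median change was 1.90 on the log2 scale for the snoRNAs and -0.29 for all probe sets, and 50 of the 52 rose by at least 2-fold. With spike-in scaling 9 rose and 15 fell, where 66 of all 9275 probe sets rose and 7993 fell. The medians were then -0.11 for the snoRNAs and -2.30 for all probe sets. The direction of the change from dry to 360 min thus depended on the scaling. The snoRNA median stood 2.19 above that of the chip, a difference that a shift common to all probe sets of an array cannot alter.

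At 360 min most snoRNAs differed from control, as did most probe sets of the chip. Compared with control, 37 were higher, where 33.7% of all probe sets were higher, and 5 were lower, where 36.4% of all were lower (70.1% in either direction). The median was 0.95 for the members and -0.01 for all probe sets. Scaled to the spike-ins, 8 were higher and 38 lower, where 410 of all 9275 probe sets were higher and 7521 lower. The medians were then -1.37 for the members and -2.33 for all probe sets. The 5 that stayed below control were SNR44, SNR55, SNR57, SNR63 and SNR11. SNR11, box H/ACA, was at 1515 ± 28.8 in control and 889.6 ± 103 at 360 min (-0.77 ± 0.24, adjusted p = 0.00986 by limma), and this call was lost with quantile normalization (-0.38). SNR63 was at 337 ± 12.1 and 133 ± 16.7 (-1.34 ± 0.27, adjusted p = 0.000333 by limma).

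Among the RNAs needed for precursor cleavage, U3 had higher signals than control at every later stage, while U14 had lower signals during drying. SNR17A, the U3 gene on the chip, read 78.1, 112 and 96.3 in control, 126, 167 and 122 at 18 h and 204, 161 and 122 in dry cells. At 15 min it read 285, 312 and 344, at 45 min 348, 330.3 and 339, at 90 min 498, 716 and 503 and at 360 min 1147, 852 and 839. All 18 h and dry arrays were above all control arrays, and the 360 min arrays were above all others. The log2 change from dry to 360 min was 2.56 ± 0.20, adjusted p = 1.76e-08 by limma. From control to dry it was 0.75 ± 0.20, adjusted p = 0.00356, a call lost with median centring (0.43), quantile normalization (0.43) and spike-in scaling (0.44). SNR17B is a nearly identical second U3 gene, so this probe set may read both.

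U14, which both methylates 18S ribosomal RNA and is needed for its release, behaved otherwise. SNR128 read 398, 417 and 488 in control, 222, 291 and 174 at 18 h and 300.1, 196 and 198 in dry cells. It read 398, 357 and 373 at 15 min, 342, 291 and 403 at 45 min, 445, 298 and 389 at 90 min and 1322, 1202 and 955 at 360 min. Both drying groups lay below all control arrays, the 45 and 90 min arrays overlapped both the dry and the control ranges, and the 360 min arrays lay above all others. The change from control to dry was -0.93 ± 0.21, adjusted p = 0.000934 by limma, lost with scan day as a block (-0.37). From dry to 360 min it was 2.34 ± 0.21, adjusted p = 8.21e-08, and with spike-in scaling 0.34 without a call.

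SNR52, a box C/D RNA known to be made by RNA polymerase III where most snoRNAs are made by RNA polymerase II, had its highest signals late in rehydration. Its signals were 173, 162 and 209 in control, 254, 162 and 220.2 at 18 h and 111, 123 and 169 in dry cells. They were 229, 202 and 206 at 15 min, 198, 239.8 and 240.4 at 45 min, 429.8, 512 and 377 at 90 min and 773, 650.5 and 916 at 360 min. The control and dry arrays overlapped, and the 90 and 360 min arrays were above all earlier ones. The fall from control to dry (-0.45 ± 0.19, adjusted p = 0.0461 by limma) was lost when replicate 1 or 3 of control or replicate 1 or 2 of the dry group was left out (log2 changes of -0.48 to -0.32). The rise from dry to 360 min was 2.55 ± 0.19, adjusted p = 8.89e-09 by limma.

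SNR4 and SNR45, box C/D RNAs known as guides for acetylation of 18S ribosomal RNA, differed in the dry state. SNR45 read 98.4, 59.3 and 67.8 in control, 106, 70.4 and 101 at 18 h and 435, 342 and 453 in dry cells. It then read 455, 338 and 329 at 15 min, 461, 388 and 479 at 45 min, 454, 1249.9 and 856 at 90 min and 1932, 1607 and 1372 at 360 min. The dry arrays were above all control and 18 h arrays and overlapped those at 15 and 45 min (2.47 ± 0.30, adjusted p = 1.4e-06 by limma for dry against control). Its signal was higher again at 360 min, with means of 409.8 in dry cells and 1637 then. At 360 min it was 4.46 ± 0.30, adjusted p = 8.29e-10 against control. SNR4 was at 607 ± 53.9 in control and 578 ± 44.5 in dry cells, and it rose to 1563 ± 260.4 at 15 min (1.43 ± 0.14, adjusted p = 2.49e-06 by limma) and was at 4756 ± 683 at 360 min.

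SNR66 and SNR61 are methylation guides for the large ribosomal subunit RNA, and both were far above control at 360 min. SNR66 read 88.1, 69.6 and 65.4 in control, 283, 214 and 296 at 18 h and 124, 144 and 127 in dry cells. During rehydration it read 833, 569 and 829.7 at 15 min, 689, 641 and 701 at 45 min, 857, 1209.6 and 909 at 90 min and 2029, 1908 and 1699.9 at 360 min. Each of the 18 h, dry and rehydrated groups was above all control arrays, and the dry arrays lay below those at 18 h. Its change was 3.83 ± 0.17, adjusted p = 4.84e-11 from dry to 360 min and 4.67 ± 0.17, adjusted p = 7.72e-13 from control to 360 min by limma. SNR61 read 616, 431 and 689.5 in control, 1075, 760.2 and 1337 at 18 h and 405, 877 and 793 in dry cells. Its rehydration values were 4662, 2958 and 3535 at 15 min, 2577, 3789 and 1388 at 45 min, 3138, 8544 and 5107 at 90 min and 12541, 11509.5 and 10735 at 360 min. Dry and control arrays overlapped, and all 15 min arrays were above all dry ones. By limma the change was 2.48 ± 0.40, adjusted p = 0.000163 in the first 15 min and 4.14 ± 0.40, adjusted p = 1.85e-07 from dry to 360 min.

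SNR46, a box H/ACA RNA, read 98.5, 79.1 and 103 in control, 178, 196 and 147 at 18 h and 151, 190.2 and 162 in dry cells. In rehydrated cells it read 474, 396 and 446 at 15 min, 446, 454 and 464 at 45 min, 673, 1688 and 697 at 90 min and 1670.0, 1565 and 1504 at 360 min. Every later array was above every control array, and replicate 2 of 90 min exceeded the 360 min arrays. The change from dry to 360 min was 3.24 ± 0.25, adjusted p = 1.43e-08 by limma and that from control to dry 0.85 ± 0.25, adjusted p = 0.00694, the latter lost with median centring (0.53). SNR56, a box C/D guide for 18S ribosomal RNA, went the other way while drying. It read 156, 156 and 151 in control, 66.2, 28.2 and 55.7 at 18 h and 30.8, 11.8 and 40.6 in dry cells. Its later values were 65.7, 32 and 27.4 at 15 min, 71.6, 33.4 and 46.8 at 45 min, 87, 137 and 137 at 90 min and 218, 285 and 221 at 360 min. The 15 and 45 min arrays overlapped those of 18 h, and only the 360 min arrays were above control. By limma its change was -2.65 ± 0.44, adjusted p = 5.32e-05 from control to dry and 3.29 ± 0.44, adjusted p = 7.57e-06 from dry to 360 min.

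In the annotation 19 members lie within 500 bases of another snoRNA gene, in 6 groups, and neighbours in some of these groups differed in course. SNR51, SNR70 and SNR41, which form a group, all had lower means in dry cells than in control. These were 472 against 738, 1003 against 1292.5 and 448 against 496, with overlapping arrays for SNR70 and SNR41. All were higher than control at 360 min, with means of 2659, 2473 and 1524. SNR128 and SNR190 are neighbours made from 1 precursor. SNR190, a box C/D RNA, read 1.5, 1.1 and 1.4 in control, 2.7, 15.9 and 5.7 at 18 h and 29, 25 and 36.3 in dry cells. It read 77.3, 49.9 and 55.7 at 15 min, 88.5, 58.2 and 65.8 at 45 min, 75.2, 120.1 and 72.1 at 90 min and 283, 272 and 284 at 360 min. It was at or below background in control and at 18 h, near it in dry cells and above it on all later arrays. At 360 min it was at least 9.44-fold above the background level that bounds the control (limma, adjusted p = 4.53e-10), and against dry the log2 change was 3.23 ± 0.42, adjusted p = 5.3e-06. Thus SNR128 was lower in dry cells than in control while SNR190 was higher, though the change of SNR190 from control to dry shrank to 0.10 without a call when the floor was set at the 20th percentile.

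The group of SNR61, SNR55 and SNR57 parted further. SNR57, whose probe set carries a suffix for possible cross-hybridization, read 201, 151 and 189 in control, 63.8, 29.8 and 66 at 18 h and 6.6, 11.3 and 21.4 in dry cells. Its rehydration values were 16.5, 23.1 and 8.2 at 15 min, 21.8, 6.9 and 16.3 at 45 min, 2.9, 33.1 and 30.5 at 90 min and 30.7, 49.7 and 17.3 at 360 min. All arrays after control were below all control arrays, and all dry, 15 min and 45 min arrays were at or below background. Dry cells were at least 6.03-fold lower than control (limma, adjusted p = 0.000294), and at 360 min the change against control was -2.59 ± 0.78, adjusted p = 0.00752. SNR55 was at 315 ± 21.4 in control, 111 ± 17 in dry cells and 169 ± 15.4 at 360 min (-0.90 ± 0.29, adjusted p = 0.0115 against control by limma). SNR61, beside them, was 4.35 ± 0.40, adjusted p = 5.19e-08 against control at 360 min. The difference between neighbours was not tested as such.

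SNR31, box H/ACA, lies beside SNR5. It read 5.5, 5.4 and 12.6 in control, 31.4, 33.7 and 38.3 at 18 h and 27.4, 25 and 18.6 in dry cells. Later it read 38.8, 39.3 and 45.9 at 15 min, 64.6, 42.5 and 63.6 at 45 min, 49.2, 54.8 and 48.3 at 90 min and 69.7, 68.7 and 72.7 at 360 min. Every control and dry array was at or below background and every other array above it. The 18 h group was at least 1.16-fold above the background that bounds control (limma, adjusted p = 9.08e-07), and the call was lost with the floor at the 20th percentile (0.23). SNR5, also box H/ACA, was at 679.7 ± 102 in control, 382 ± 67.1 in dry cells and 2234 ± 323 at 360 min. Of the 7 genes from SNR78 to SNR72, a cluster cut from 1 precursor, SNR74 had the widest range. It read 21.7, 20.6 and 20.0 in control, 86, 89.8 and 83.8 at 18 h and 51.8, 43.7 and 60.1 in dry cells. It read 56.8, 7.3 and 26.4 at 15 min, 11.2, 27.7 and 37.6 at 45 min, 55.3, 125 and 101 at 90 min and 204, 171 and 203 at 360 min. It was above background on all 18 h and dry arrays and on none of the control arrays, at least 2.92-fold higher at 18 h, and SNR72 and SNR73 also had higher means at 18 h than in control (239 ± 7.96 and 287 ± 8.04, 274 ± 9.01 and 330.1 ± 22.5), whereas SNR75, SNR76, SNR77 and SNR78 had lower ones. Its call in dry cells was lost in all 6 leave-outs (log2 changes of 1.20 to 1.43), and its rise from 45 to 90 min in 4 of 6, those of replicates 1 and 2 of 45 min and 2 and 3 of 90 min (1.46 to 2.11). All 7 of the cluster had higher means at 360 min than in dry cells.

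**Figure D3:**
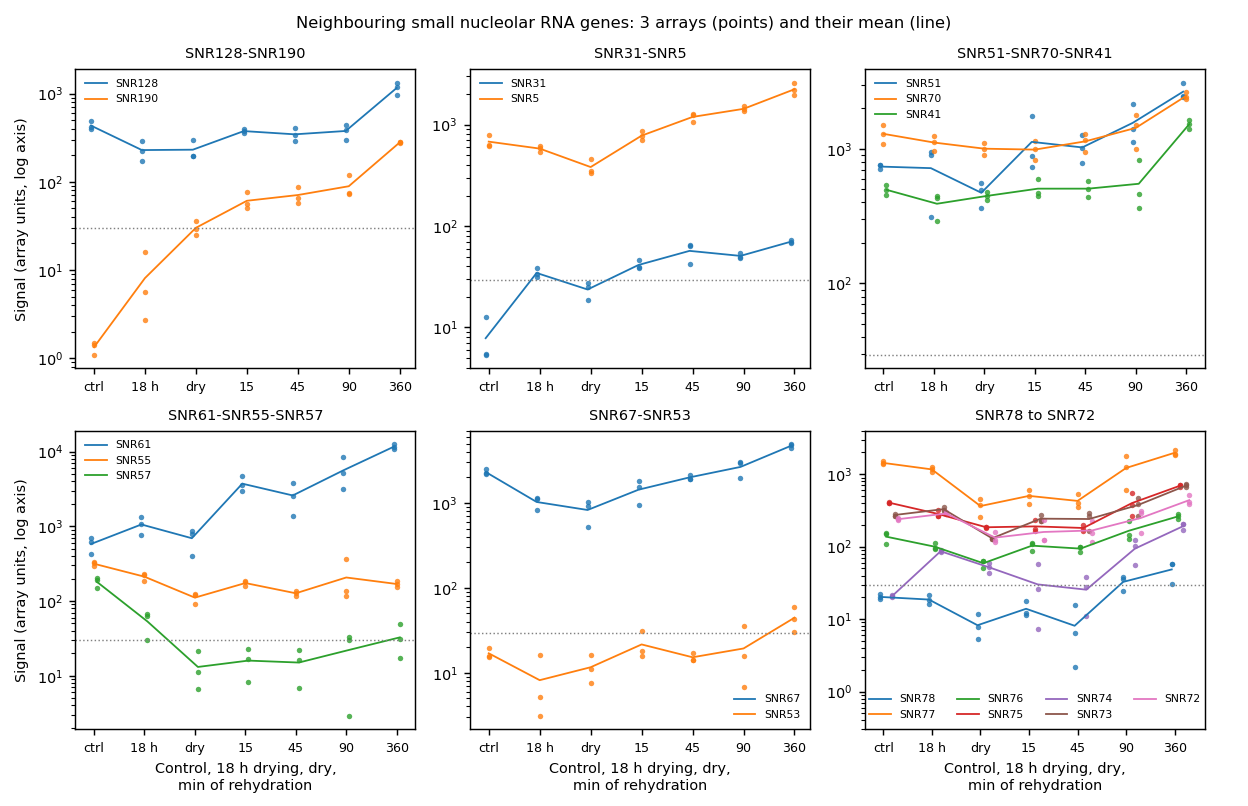
Signals of the 19 snoRNA genes that neighbour another snoRNA gene, in 6 panels, on a log axis in array units. Points are the 3 arrays of a time point, lines join the means, and the dotted line is the background of 29.6. SNR61 ended at a mean of 11595 while its neighbours SNR55 and SNR57 ended at 169 and 32.6, below their control means of 315 and 180.1, and SNR190 went from below background to 279.9.

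The snoRNAs inside protein genes were set beside their host genes. According to the annotation SNR38 lies in TEF4, which encodes a translation elongation factor subunit, SNR39 in RPL7A and SNR44 in RPS22B, which encode ribosomal proteins, and SNR54 in IMD4, a homologue of the enzyme of GMP synthesis. SNR44, box H/ACA, read 1182, 1152 and 1149.5 in control, 305, 397 and 259 at 18 h and 174, 163 and 195 in dry cells, and then 374, 388 and 368 at 15 min, 376, 349 and 395 at 45 min, 342, 556 and 471 at 90 min and 622, 574 and 473 at 360 min. All later arrays were below all control arrays. Its log2 change from control to dry was -2.72 ± 0.17, adjusted p = 3.15e-10 by limma, and that of RPS22B was -6.54 ± 0.14, adjusted p = 1.85e-15. RPS22B read 5937, 6097 and 5799 in control, 52, 66.6 and 74.6 in dry cells and 901, 802 and 929 at 360 min. From dry to 360 min SNR44 changed by 1.65 ± 0.17, adjusted p = 3.09e-07, which turned to -0.36 with spike-in scaling.

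SNR38 had no called difference between control and dry cells, while TEF4 fell. SNR38 read 199, 200.4 and 211 in control, 207, 197 and 188 at 18 h and 214, 203 and 211 in dry cells, groups that overlapped. It read 349, 233 and 366 at 15 min, 225, 333 and 396 at 45 min, 466, 973 and 442 at 90 min and 770.2, 846 and 742 at 360 min. From control to dry its log2 difference was 0.04 ± 0.25, adjusted p = 0.907 by limma, while TEF4 fell from 4202 ± 226 to 218 ± 55 (-4.30 ± 0.15, adjusted p = 3.04e-13). From dry to 360 min SNR38 changed by 1.91 ± 0.25, adjusted p = 7.03e-06 and TEF4 by 2.76 ± 0.15, adjusted p = 2.95e-10, and with spike-in scaling SNR38 was at -0.10.

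SNR39 read 144, 138 and 171 in control, 101, 116 and 91.9 at 18 h and 48.2, 44.8 and 45.1 in dry cells. It read 88.1, 71.4 and 109.8 at 15 min, 90.5, 95.3 and 87.2 at 45 min, 129.5, 119 and 87.8 at 90 min and 168, 116 and 109 at 360 min. The dry arrays lay below all others, and the 360 min arrays overlapped control. Its change was -1.71 ± 0.18, adjusted p = 3.6e-07 from control to dry, and RPL7A changed by -4.33 ± 0.16, adjusted p = 5.52e-13. From dry to 360 min SNR39 changed by 1.49 ± 0.18, adjusted p = 2.86e-06 (-0.52 with spike-in scaling). SNR54 read 83.6, 80.6 and 82.7 in control, 18, 22.1 and 9.1 at 18 h and 8.2, 17.4 and 2.0 in dry cells. It read 18, 18 and 8.7 at 15 min, 24.9, 25.4 and 16.4 at 45 min, 40.6, 27.2 and 34.4 at 90 min and 43, 70.7 and 53.3 at 360 min. From 18 h to 45 min it was at or below background on every array, at least 2.78-fold lower in dry cells than in control (limma, adjusted p = 1.16e-05). IMD4 fell from 3642 ± 129 to 127 ± 7.94 (-4.85 ± 0.24, adjusted p = 1.92e-11) and was 1.71 ± 0.24, adjusted p = 1.14e-05 from dry to 360 min.

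**Figure D4:**
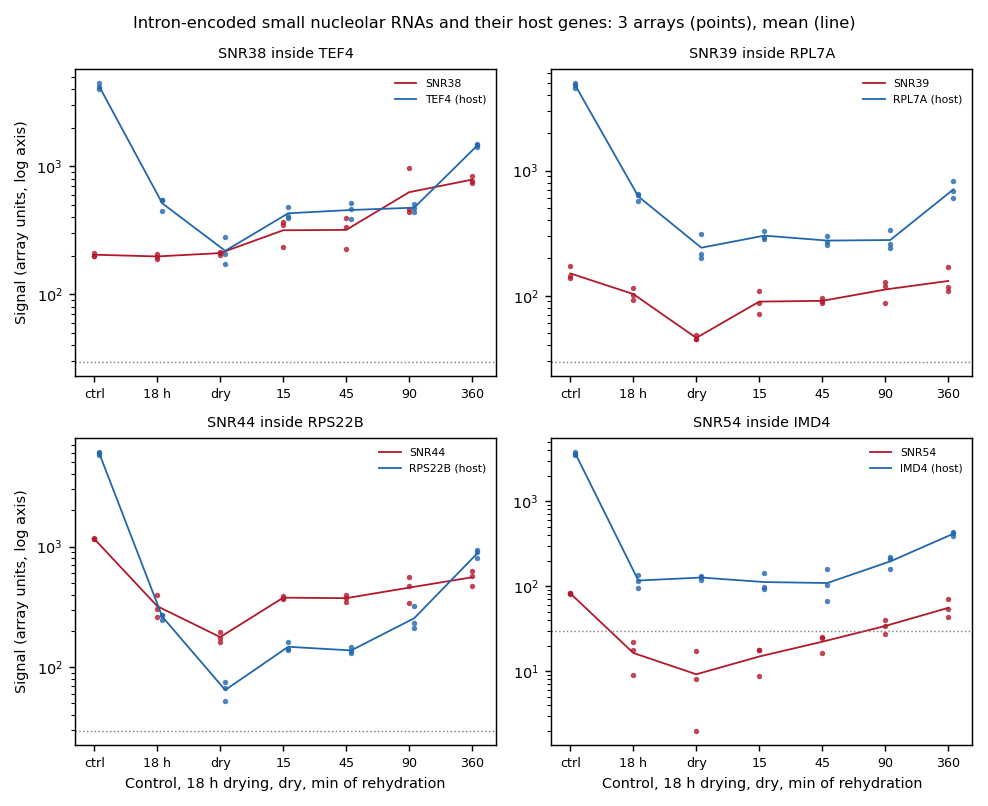
Signals of 4 intron-encoded snoRNAs (red) and the genes that hold them (blue) at each time point, on a log axis in array units, with arrays as points, means as lines and the background of 29.6 dotted. All 4 host genes dropped from control means of 3642 or more, to dry means of 242 or less, while SNR38 had means of 203.5 in control and 209.6 in dry cells and SNR44 went from 1161 to 177.

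Over the 8 listed genes known to hold a snoRNA in an intron, 7 fell from control to dry and none rose (median log2 change -4.31), where 27.2% of all probe sets fell. EFB1, the exception, was at 2785 ± 219 in control and 2041 ± 371 in dry cells. From dry to 360 min 6 of the 8 rose on the deposited scale, where 21.2% of all probe sets rose. The median of the 8 was 1.35, below the 2.01 of the spike-ins. At 360 min 7 were still below control, where 36.4% of all probe sets were lower. RPL7B was at 1717 ± 557 in control and 38.4 ± 17.8 at 360 min.

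The proteins that form the snoRNA particles had messages that fell during drying and were still lower than control at 360 min. All 4 box C/D core genes fell from control to dry (median -4.68, with 27.2% of all probe sets falling), as did the 3 measured box H/ACA core proteins (median -3.05). NOP1, the methyltransferase, read 2855, 2830.0 and 2852 in control, 98.7, 121 and 129 in dry cells and 189.8, 176 and 196 at 360 min, so the 360 min arrays lay above the dry and far below the control arrays. Its change was -4.62 ± 0.17, adjusted p = 5.49e-13 from control to dry and -3.93 ± 0.17, adjusted p = 4.64e-12 from control to 360 min by limma. CBF5, the pseudouridine synthase, read 2632, 2843 and 2560.5 in control, 322, 342 and 306 in dry cells and 388, 387 and 408 at 360 min (-2.76 ± 0.12, adjusted p = 4.12e-12 against control). NOP58, a scaffold of the box C/D particle, was at 5077 ± 187 in control, 91.4 ± 9.05 in dry cells and 558 ± 39.2 at 360 min. On the deposited scale all 7 core genes rose from dry to 360 min, where 21.2% of all probe sets rose. Their medians of 1.10 and 1.56 are below the 2.01 by which the spike-ins differed in that comparison, so spike-in scaling turns these medians. All 7 remained lower than control at 360 min, where 36.4% of all probe sets were lower. In the same comparison with control 37 of 57 snoRNAs were higher and 5 lower on the deposited scale, and 8 higher and 38 lower with spike-in scaling. Over all 9275 probe sets, spike-in scaling gave 410 higher and 7521 lower there.

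Other noncoding RNAs, made by RNA polymerases II and III, were measured on the same arrays. All 4 measured spliceosomal RNAs rose from control to dry (median 3.96, with 40.1% of all probe sets rising). At that stage 33 snoRNAs fell. All 4 rose again from dry to 360 min, where 21.2% of all probe sets rose. Their median was 2.20 on the deposited scale, where the spike-ins differed by 2.01. SNR14, the U4 RNA of the spliceosome, read 78.5, 80.5 and 83.5 in control, 2977, 2778 and 2858 in dry cells and 12977, 13899 and 14585 at 360 min, with no overlap between them (5.15 ± 0.09, adjusted p = 6.67e-17 from control to dry by limma). SNR6, the U6 RNA and a product of RNA polymerase III, was at 276 ± 12.2, 3235 ± 377 and 7702 ± 909.7 in these groups. RPR1, the RNA of ribonuclease P and also made by RNA polymerase III, read 579, 708 and 615 in control, 3684, 3681 and 3617 in dry cells and 13264, 13972 and 15434 at 360 min (2.54 ± 0.14, adjusted p = 1.13e-10 from control to dry). TLC1, the telomerase RNA, was at 345 ± 10.1 in control, 154 ± 46.8 in dry cells and 1247 ± 144 at 360 min, a fall of 1.21 ± 0.24 and then a rise of 3.06 ± 0.24, adjusted p = 2.07e-08 by limma. Probe sets for 25S ribosomal RNA differed among themselves. One read 355, 272 and 247.5 in control, 1113, 4921 and 2852 in dry cells and 6139, 9175 and 9464 at 360 min, while another had means of 380.3 in control, 2716 in dry cells and 332 at 360 min, and the other 3 had means of 63.8 or less in these groups.

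**Figure D5:**
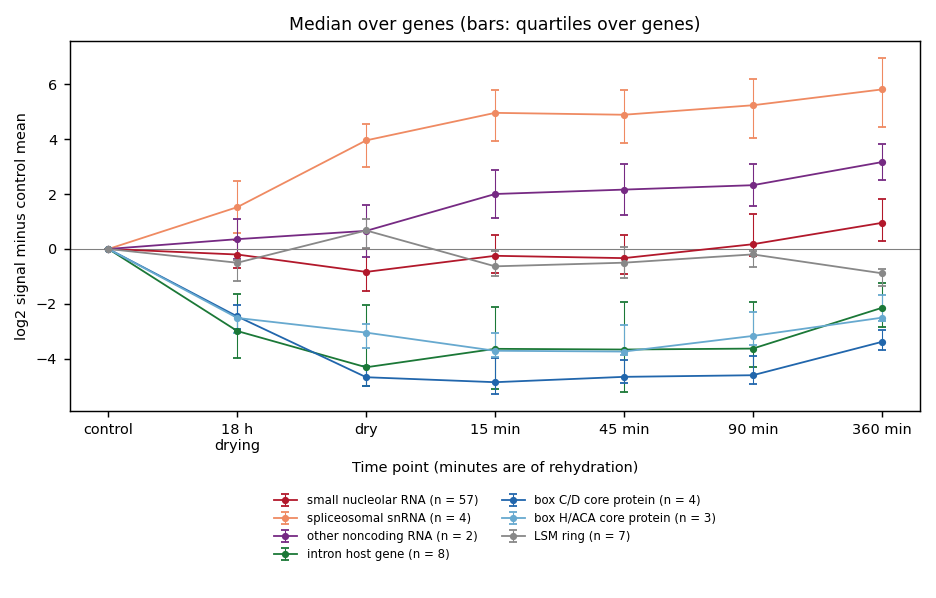
Median over genes of the mean log2 signal minus the control mean, for the 57 snoRNAs and 6 other lists, with bars from the lower to the upper quartile over genes. On the deposited scale the snoRNA median was -0.84 in dry cells and 0.95 at 360 min, the 4 spliceosomal RNAs were at 3.96 and 5.82, and the 4 box C/D core proteins at -4.68 and -3.39. With spike-in scaling the snoRNA median at 360 min was -1.37 and that of all probe sets -2.33.

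Genes for making and trimming snoRNAs showed no single course, and several of the counts lie near those of the chip: over all probe sets 40.1% rose and 27.2% fell from control to dry, and 21.2% rose and 40.7% fell from dry to 360 min. Of 13 genes of 3' end formation and tailing, 8 rose and 2 fell from control to dry, and 2 rose and 8 fell from dry to 360 min. NAB3, which with Nrd1 ends snoRNA transcription, was at 493 ± 14.7 in control, 1057 ± 31.6 at 15 min and 303 ± 5.75 at 360 min. MTR4, the helicase that feeds RNA to the nuclear exosome, was at 366 ± 25.8, 144 ± 23.1 and 57.2 ± 4.94 in control, dry and 360 min cells. Of 13 exosome genes 6 rose and 4 fell from control to dry, and 1 rose and 10 fell from dry to 360 min. RRP45, a subunit of its ring, was at 478 ± 19.7 in control and 97.6 ± 16.4 at 360 min. DBR1, which debranches intron lariats, rose from 69.3 ± 13.2 to 441 ± 68.1 (2.67 ± 0.15, adjusted p = 1.47e-10 by limma).

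All 7 LSM genes, whose products bind U6 and some snoRNA precursors, rose from 18 h to dry (median 1.59, with 22.1% of all probe sets rising) and all 7 fell from dry to 360 min (median -1.73). LSM3 was at 121 ± 0.252, 478 ± 56.4 and 265 ± 18.4 at those points. Of 12 assembly factors 7 rose and 4 fell from control to dry (40.1% and 27.2% of all probe sets), and none rose and 7 fell from dry to 360 min (21.2% and 40.7% of all). SRP40, a nucleolar chaperone of the particles, was at 1085 ± 15.3 in control and 190.3 ± 42.7 in dry cells. Among 8 proteins of the U3 and U14 particles, 2 rose and 3 fell from control to dry, and none rose and 7 fell from dry to 360 min. DHR2, a helicase of ribosomal RNA processing, was at 178 ± 17.8 in control and 57.1 ± 8.0 at 360 min.

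The box C/D and box H/ACA families both had more falls than rises from control to dry and, on the deposited scale, more rises than falls from dry to 360 min. From control to dry 7 of 40 box C/D RNAs rose and 23 fell (median -0.89), and 2 of 17 box H/ACA RNAs rose and 10 fell (median -0.75), where 40.1% of all probe sets rose and 27.2% fell. From dry to 360 min 36 of 40 and 16 of 17 rose, where 21.2% of all did, with medians of 1.97 and 1.47. The difference between the families was not tested. Across the 57 members, gene length had a Spearman correlation of 0.11 with the change from control to dry and -0.23 with that from dry to 360 min, a description over genes that share the same arrays.

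The labelled strain was set against markers of other cell states. In control 6 of 10 haploid and mating genes had means at or below background, HO and GPA1 among them, but only 2 of 10 did in dry cells and 2 of 10 at 360 min. From control to dry 4 rose and none fell, where 40.1% of all probe sets rose and 27.2% fell. Against control, 5 were higher and 4 lower at 360 min (33.7% and 36.4% of all). The summed signal of the 10 was 522 to 612 in control, 750.3 to 909.8 in dry cells and 561 to 722 at 360 min. Of 10 genes of meiosis and sporulation 8 had means at or below background in control, 4 at 18 h, 3 in dry cells and 5 at 360 min. Their sum was 307 to 367 in control, 3157 to 3412 at 18 h, 883 to 999.7 in dry cells and 332 to 404 at 360 min. IME1, the inducer of meiosis, was at 227 ± 20.9 in control and 2988 ± 80.9 at 18 h. The part of these markers in the snoRNA values was not tested.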

How the data were processed

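The deposited table holds 1 intensity per probe set and array, on a linear scale. Per the labels, the authors hybridized cRNA to the chip, computed signals with GeneChip software and named a Wilcoxon signed-rank step and a linear mixed model in 2 steps; the labels do not state whether the deposited values precede that model. The 2% trimmed mean of every array lay between 500.2 and 500.6, so the values were taken as scaled between arrays and used as deposited. The run records are of another kind (chip type, hybridization and scan times per the file headers) and were read only for the 4 scan days.

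Of 9335 probe sets 60 chip controls were left out. Signals under 2.8 (5th percentile of those above 0) were raised to 2.8, log2 was then taken, and 4.99% of values were at this floor. limma 3.58.1 (R 4.3.3) fitted 1 mean per time point to all 21 arrays with eBayes (14 residual and 1.53 prior degrees of freedom), and p-values were adjusted by the Benjamini-Hochberg method over 9275 probe sets. "Rose" and "fell" mean an adjusted p under 0.05. Changes are log2 ± SE, signals mean ± SD of 3 arrays. The 9 comparisons share groups, the dry arrays entering 4 of them, so their counts are not independent. Where all arrays of 1 group were at or below the background of 29.6, the change is "at least N-fold", the other group's geometric mean (from the mean of its log2 values) over that level, and p is that of the fit with the floor.

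Names came from the platform annotation: 6504 probe sets have 1 gene, 328 several and 2443 none. All 57 members matched the RefSeq table (R64), which was used for names and neighbours only, since the files name no build. SNR39B was put on the list of intron-encoded RNAs in error, and the annotation, which places it in no gene, was followed. SNR39B and SNR62 have 2 probe sets. 4 members carry a suffix for possible cross-hybridization (SNR39B, SNR47, SNR57, SNR62), and without them 31 fell and 7 rose from control to dry. Members, gene lists and tests were chosen with earlier results of these data known. All members could be named; signals on every array were given for U3, U14, SNR190, SNR52, intron-encoded members and the 8 others with the widest range, and in each comparison up to 5 called rises and 5 called falls without overlap between groups were named, with up to 4 genes of each other list by smallest F test p. No promoter motif search was made, since no sequences were used here. No 2 arrays held the same values (at most 0.900% equal in 210 pairs). Simulated data with known changes were used to test the fit. Alternatives were 3 other scalings, other floors and offsets, a filter on dim probe sets, mean of a gene's probe sets, an intensity trend, fits to the compared groups alone, replicate number or scan day as a block, a 2-fold minimum and leaving out each array.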

Additional observations from a re-analysis of the deposited data

How the results depend on the processing

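With 3 arrays a group and scan days that follow the time course, precision was limited. The count of changed snoRNAs over the 7 time points stayed between 53 and 55 when each array was left out. Leaving out 1 array gave 19 to 26 for 18 h against control, 22 to 28 for dry against 18 h, 35 to 39 for dry against control, 21 to 29 for 15 min against dry, 0 for 45 against 15 min, 6 to 17 for 90 against 45 min, 21 to 32 for 360 against 90 min, 51 to 52 for 360 min against dry and 40 to 41 for 360 min against control. Requiring a 2-fold change as well left 11 for 18 h against control, 17 for dry against 18 h, 15 for 15 min against dry, 9 for 90 against 45 min and 7 for 360 against 90 min. Spike-in scaling gave 17 for 15 min against dry, 5 for 90 against 45 min, 9 for 360 against 90 min and 24 for 360 min against dry, in the directions given with those comparisons, and it moved the median of all probe sets by up to 2.3 on the log2 scale. Under it SNR38, SNR39 and SNR44 turned to -0.10, -0.52 and -0.36 from dry to 360 min. Within scan day 1 the count for 18 h against control was 16. With scan day as a block SNR62 turned to -0.29 from control to dry, an estimate that rests on values at or below background. For 45 against 15 min, log2(value + 50) and an intensity trend each gave 1. For 90 against 45 min the fit with only those 6 arrays gave 0, where 1 of all 9275 probe sets rose and 1 fell. Before adjustment 29 members had p under 0.05 in the limma fit to all arrays, as did 1965 of all probe sets. Scan day as a random block gave 8 for 90 against 45 min, where 71 of all probe sets rose and 115 fell. For that step, and for 360 min against dry and against control, scan day as a fixed block could not be fitted. The causes were not tested. Of 70 calls of named members, 41 held in every alternative other than the 2-fold rule and the fit with only the groups compared.

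The replicate numbers did not pair the samples: over 27 pairs of same-numbered arrays the correlations of deviations ran from -0.13 to 0.09. With a replicate block 55 members changed over the time points, and the counts were 25, 26, 40, 27, 0, 12, 27, 52 and 41 in the 9 comparisons in the order above.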
